A study of Mus musculus with 18 samples.

Results

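Sterol synthesis, uptake and export genes were followed in mouse bone marrow neutrophils given GM-CSF, the growth factor that activates these cells and prolongs their life. The 33 genes comprise 18 enzymes of cholesterol synthesis, the SREBP factors Srebf1 and Srebf2 with the INSIG proteins Insig1 and Insig2, the sterol carrier Stard4, the LXR factors Nr1h2 and Nr1h3 with their targets Abca1, Abcg1 and Mylip, and 5 genes of fatty acid synthesis. They were chosen by symbol as SREBP and LXR pathway genes. Earlier results of these data were known at the time, so the choice was not blind to them. All 33 were found among 53379 gene IDs in the count table. A filter on low counts left 11569 genes for testing, among them 32 of the 33, and Scd1 was the gene it removed.

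The neutrophils were sorted by flow cytometry from the marrow of 10-week-old mice labelled CIS-/- or WT. CIS is the protein encoded by Cish, a member of the SOCS family that restrains cytokine receptor signalling. Sorted cells of each genotype were lysed at once (unstimulated) or cultured with 100 ng/mL GM-CSF for 4 h or 24 h, and each of the 6 groups has 3 libraries. The labels give no strain, sex or construct and do not say whether the libraries of a group came from separate mice, so the tests measure the spread between these libraries. The unstimulated cells were not cultured, so that GM-CSF and time in serum-containing medium cannot be told apart in any comparison over time.

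Cells build cholesterol from acetyl-CoA through mevalonate, squalene and lanosterol. When sterol in the endoplasmic reticulum runs low, SCAP escorts the SREBP factors to the Golgi, where proteases release the part that enters the nucleus and switches on the genes of synthesis and uptake. INSIG proteins hold the complex back when sterol is plentiful. Oxysterols made from surplus cholesterol activate the LXR factors, which switch on the exporters ABCA1 and ABCG1 and the ubiquitin ligase encoded by Mylip, which removes lipoprotein receptors. In mice, loss of Abca1 and Abcg1 from blood-forming cells is known to load leukocytes with cholesterol and to raise neutrophil numbers.

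Sequence around the transcription start was available from RefSeq (GRCm38.p6) for 26 of the 33 genes, as windows of 250 bases before to 50 bases after each start, and was searched without mismatch on both strands. The sterol regulatory element was searched for only as TCACNCCAC, a form of the sites that SREBP factors bind. This form lay in a window of 1 of the 26 genes (3.85%) and of 1.44% of the 27025 genes with a window. The NF-Y box CCAAT lay in windows of 21 of the 26 (80.8%) and of 41.1% of genes, and the Sp1 box GGGCGG in 21 of the 26 (80.8%) and in 38.2% of genes. Both factors are known partners of SREBP on sterol gene promoters. The comparison shares are over all genes with a window, not over expressed genes or genes of like base content. Whether these boxes are particular to sterol genes was not tested. The E-box CACGTG lay in 5 of the 26 (19.2%) and in 8.09% of genes, and the LXR element, taken as 2 copies of AGGTCA in the same direction with 4 bases between them, in 0 of the 26 and in 4 of the 27025 genes. These are exact matches of letters in the window. No match says nothing about sites with other letters in the window or about binding elsewhere. Fdps, Fdft1, Sqle, Stard4, Abcg1, Scd1 and Scd2 had no window and were not searched.

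The gene with this form of the sterol regulatory element was Hmgcs1, whose enzyme makes the first committed metabolite of the pathway. It is shown in capitals below, 137 to 129 bases before the start, in a stretch that runs from 208 to 59 bases before it (chr13:119690143-119690292, plus strand).
Hmgcs1: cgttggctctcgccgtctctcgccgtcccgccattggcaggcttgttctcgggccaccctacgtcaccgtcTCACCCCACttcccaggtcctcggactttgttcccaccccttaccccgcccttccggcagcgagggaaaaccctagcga

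Stretches from 200 to 61 bases before the start are set out for 3 genes that were far higher in CIS-/- than in WT cells at 24 h and for 2 that were lower. These 5 were chosen after their values were seen, and NF-Y boxes (CCAAT or ATTGG), Sp1 boxes (GGGCGG or CCGCCC) and E-boxes (CACGTG) stand in capitals. Hsd17b7 (chr1:169969266-169969405, minus strand) and Insig1 (chr5:28071212-28071351, plus strand) each hold an E-box in the stretch, and Cyp51 (chr5:4104758-4104897, minus strand) holds a single Sp1 box there. Acat2 (chr17:12960786-12960925, minus strand) holds none of the boxes in its stretch and Ebp (chrX:8193573-8193712, minus strand) a single NF-Y box. Boxes nearer the start lie outside these stretches. Acat2 and Ebp each have an Sp1 box 33 to 28 bases before the start, and Ebp an NF-Y box 55 to 51 bases before it. Cyp51 has an NF-Y box 29 to 25 bases before the start and Hsd17b7 12 to 8 bases before it. Tm7sf2, also lower in CIS-/- cells, was left out because an annotated exon overlaps its stretch.
Hsd17b7: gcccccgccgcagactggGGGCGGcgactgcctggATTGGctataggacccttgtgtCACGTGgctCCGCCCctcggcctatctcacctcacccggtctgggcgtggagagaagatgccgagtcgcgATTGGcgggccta
Insig1: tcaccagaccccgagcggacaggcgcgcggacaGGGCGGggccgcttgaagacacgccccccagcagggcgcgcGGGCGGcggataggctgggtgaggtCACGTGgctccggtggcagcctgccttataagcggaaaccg
Cyp51: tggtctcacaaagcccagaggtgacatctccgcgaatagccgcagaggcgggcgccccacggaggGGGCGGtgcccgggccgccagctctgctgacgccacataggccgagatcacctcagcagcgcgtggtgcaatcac
Acat2: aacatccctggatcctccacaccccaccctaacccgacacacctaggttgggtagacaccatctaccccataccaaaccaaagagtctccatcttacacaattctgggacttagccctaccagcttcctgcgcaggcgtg
Ebp: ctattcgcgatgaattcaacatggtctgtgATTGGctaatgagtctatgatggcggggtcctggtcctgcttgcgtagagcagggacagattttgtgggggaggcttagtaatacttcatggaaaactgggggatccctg

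Library totals ran between 12170524 and 22539858 counts. Values are counts per 1000000 counts of a library (CPM) after edgeR's TMM scaling, and tests are edgeR's quasi-likelihood test with Benjamini-Hochberg adjustment over the 11569 genes, called at an adjusted p under 0.05. Cish, the targeted gene, stood at 18.2, 20 and 17.9 CPM unstimulated, 243, 240 and 237 CPM at 4 h and 238, 243 and 233 CPM at 24 h in libraries labelled CIS-/-. The WT libraries held 6.48, 6.51 and 6.49 CPM unstimulated, 1150, 1140 and 1150 CPM at 4 h and 1070, 1050 and 1060 CPM at 24 h. Cish was thus 2.88-fold higher in the unstimulated libraries labelled CIS-/- than in WT (adjusted p = 4.96e-25), against the label, and lower than in WT by a log2 difference of -2.26 at 4 h and -2.16 at 24 h. No source used here says which part of Cish was deleted, so whether these reads check the label is not known. A direction drawn from the unstimulated libraries labelled CIS-/- rests on libraries whose label Cish did not bear out.

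Neutrophil markers were abundant in every library. The summed level of 10 of them was 109000 to 112000 CPM in unstimulated CIS-/- and 112000 to 113000 CPM in unstimulated WT libraries, and 33200 to 37700 CPM in CIS-/- and 33300 to 34700 CPM in WT libraries at 24 h. A list of 12 monocyte and macrophage markers summed to 1010 to 1050 CPM in CIS-/- and 540 to 561 CPM in WT libraries at 24 h, where 5 of the 12 were tested, and 3 were called, all higher in CIS-/-: Adgre1 (776 CPM in CIS-/-, 344 CPM in WT), Ly6c2 (77.4 and 45.3 CPM) and F13a1 (3.11 and 0.276 CPM). In this comparison 76.3% of all genes tested were called, 38.2% higher and 38.1% lower. The marker levels rest on TMM scaling and were not worked out with library sizes alone. At 24 h Csf1r averaged 169 CPM in CIS-/- and 163 CPM in WT libraries, and Mrc1, Cx3cr1, C1qa, C1qb and C1qc averaged under 1 CPM in every group. A list of 6 stromal and endothelial markers summed to 954 to 975 CPM in CIS-/- and 72.2 to 75.5 CPM in WT libraries at 24 h, nearly all of it Pecam1 and Col1a1, while Cdh5, Pdgfra and Col1a2 were at 0 in both. Erythroid and megakaryocyte markers summed to 25.4 to 37.3 CPM in CIS-/- and 10 to 10.9 CPM in WT libraries at 24 h, and dendritic cell markers to 10.3 to 12.8 CPM in CIS-/- and 4.34 to 4.41 CPM in WT libraries. In RNA from sorted cells in bulk, fewer cells of a type and less RNA per cell cannot be told apart, and the part of marker differences in the results below was not tested.

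Within each genotype, most of the sterol genes stood higher after 24 h of GM-CSF than in unstimulated cells. The summed level of the 18 synthesis enzymes was 200 ± 2.2 CPM in unstimulated CIS-/- cells, 288 ± 6.8 CPM at 4 h and 1420 ± 34 CPM at 24 h (mean ± SD, n = 3 libraries). In WT cells it was 230 ± 7.1 CPM unstimulated, 326 ± 10 CPM at 4 h and 659 ± 15 CPM at 24 h. The ratio of the 24 h to the unstimulated mean was 7.1 in CIS-/- and 2.87 in WT cells, and the CIS-/- mean at 24 h was 2.15 times the WT mean. The sum weighs abundant genes most: Sc5d (310 CPM), Msmo1 (229), Hmgcs1 (211) and Cyp51 (181) were the largest in CIS-/- cells at 24 h. Acat2, Mvk, Tm7sf2, Ebp and Dhcr7 had lower means in CIS-/- than in WT cells at 24 h, and the other enzymes higher means. These sums rest on TMM scaling, with factors of 1.28 to 1.29 in WT and 0.884 to 0.894 in CIS-/- libraries at 24 h. Library sizes alone would set the 24 h sums of the genotypes closer together, and the sums were not worked out that way.

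Of the 32 genes tested, 26 were higher and 6 lower at 24 h than unstimulated in CIS-/- cells, where 84.1% of all genes tested were called in either direction, 42.1% higher and 42.0% lower. Nr1h3 is among the 26, but it passed the filter on low counts only through the CIS-/- libraries at 24 h, so its place there supports nothing. In WT cells 25 were higher and 4 lower, against 78.4% of all genes called in either direction, 40.7% higher and 37.7% lower. The median log2 change of the 32 was 2.0 in CIS-/- and 0.949 in WT cells, beside -0.0141 and 0.051 over all genes tested. With library sizes alone the medians of the 32 were 1.82 in CIS-/- and 1.26 in WT cells, beside -0.197 and 0.36 over all genes. The difference between the genotypes in the change from unstimulated to 24 h was not tested. The genes called higher in both genotypes numbered 23, which is 23 of the 26 in CIS-/- and 23 of the 25 in WT cells. Since most genes of the table were called, the size and direction of each gene carry more here than the call. For 19 of the 33 genes the highest mean of the 6 groups was in CIS-/- cells at 24 h, and for 18 of these each of those 3 libraries lay above the other 15. Both counts include Nr1h3. The share of all genes with such a peak was not worked out, so these counts are description only.

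The first 4 h gave no common direction. In each genotype 13 of the 32 were higher and 16 lower at 4 h than unstimulated, with 77.0% of all genes called in CIS-/- cells (37.9% higher, 39.1% lower) and 76.3% in WT cells (38.1% higher, 38.2% lower). From 4 h to 24 h 25 were higher and 4 lower in each genotype, with 75.7% of all genes called in CIS-/- cells (37.8% higher, 37.9% lower) and 75.3% in WT cells (35.7% higher, 39.6% lower). The 25 in CIS-/- cells include Nr1h3, with the same limit from the filter. Of the 18 synthesis enzymes 9 rose and 9 fell by 4 h in CIS-/- cells, and 7 rose and 9 fell in WT cells. From 4 h to 24 h 16 of the 18 rose in CIS-/- and 17 in WT cells, while the exporters Abca1 and Abcg1 fell over this step after rising by 4 h.

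**Figure D1:**
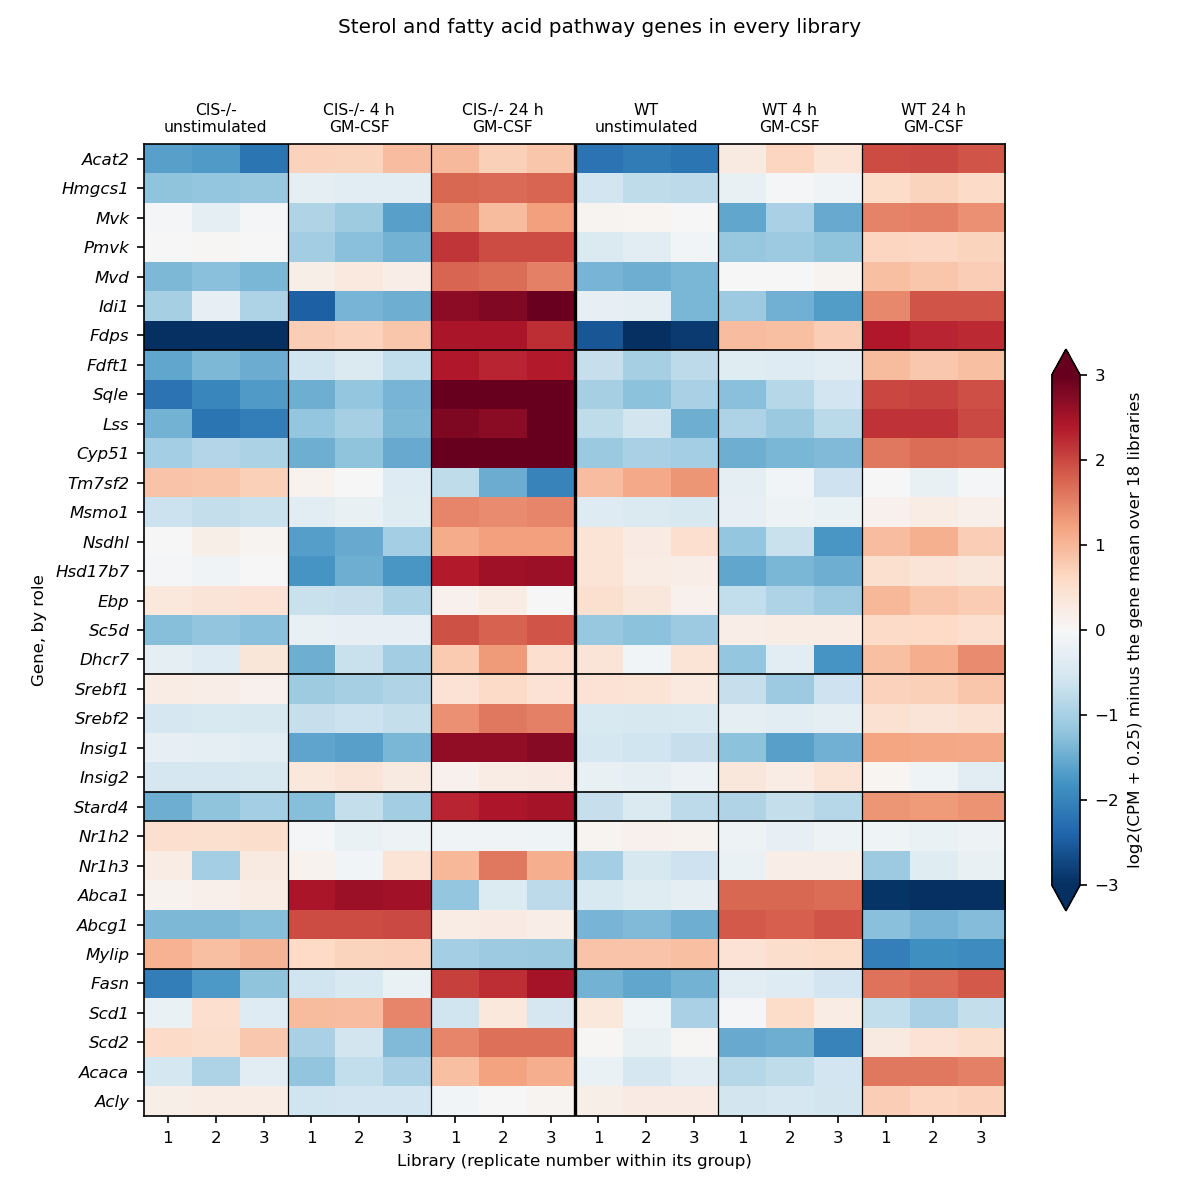
Level of each of the 33 genes (rows, grouped by role) in the 18 libraries (columns, 3 per group), as log2(CPM + 0.25) minus the gene's mean over the 18 libraries. The 3 CIS-/- libraries at 24 h are the darkest red for most synthesis enzymes, Insig1 and Stard4, whereas Abca1 and Abcg1 are red at 4 h and Acat2, Ebp and Acly are highest in the WT libraries at 24 h.

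**Figure D2:**
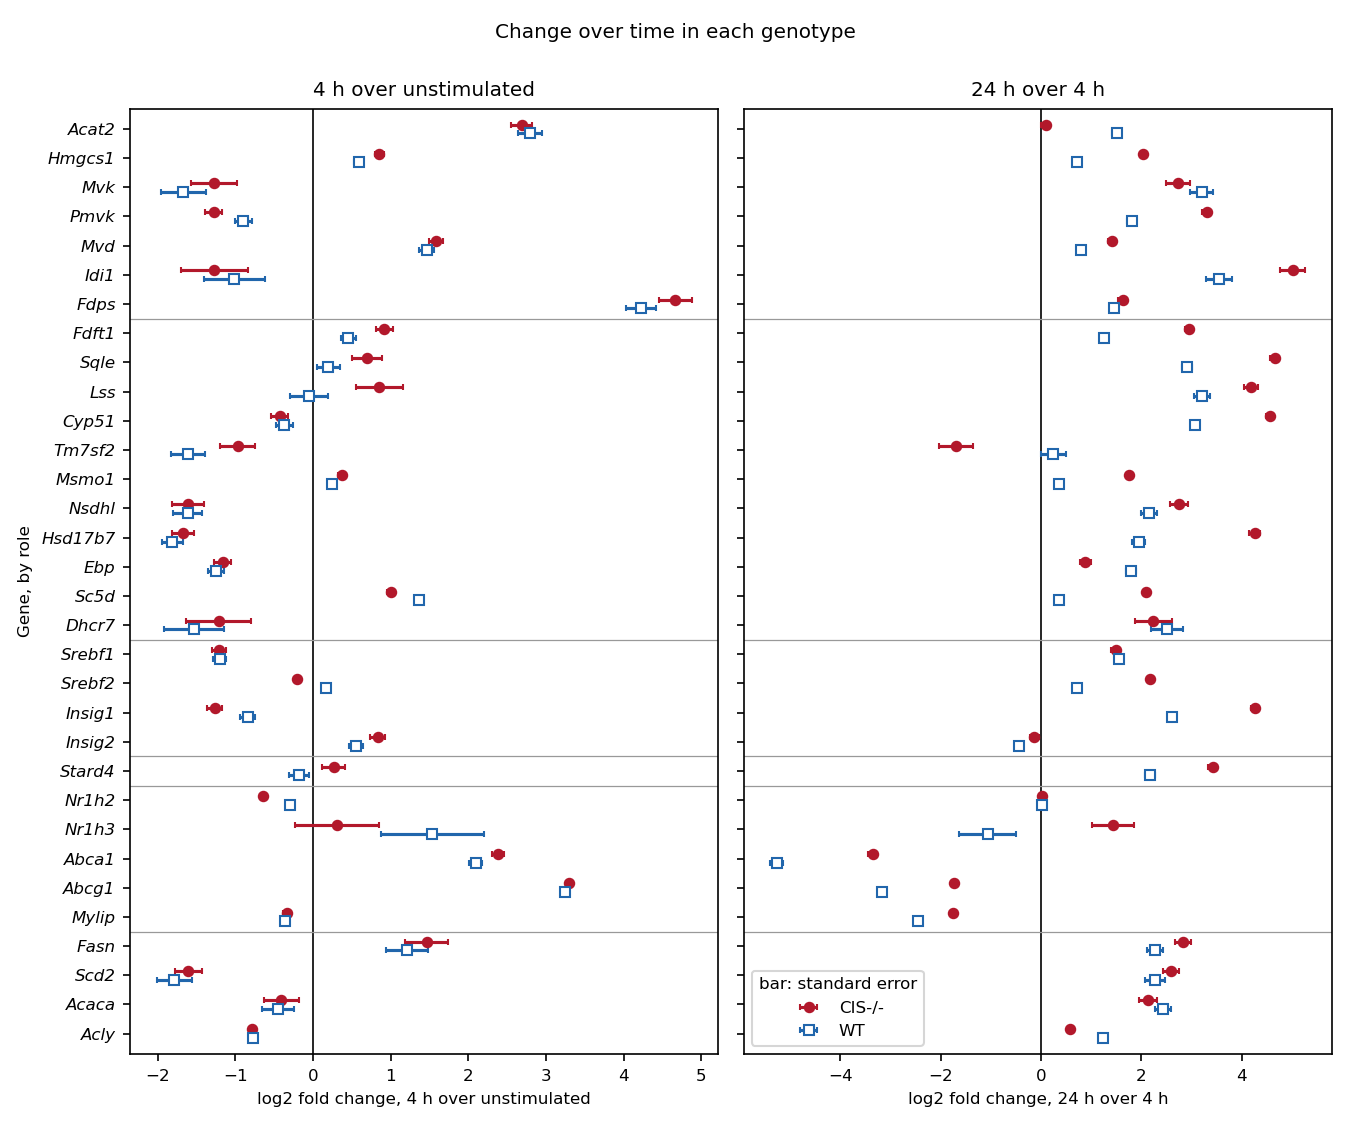
Log2 fold change of the 32 genes tested, with its standard error, from unstimulated to 4 h (left) and from 4 h to 24 h (right), for CIS-/- (filled circles) and WT (open squares). On the left the genes lie on both sides of 0, and the genotypes differ by the test of the difference for 6 of them. On the right 25 genes lie above 0 as called in each genotype, with CIS-/- to the right of WT for 19 of the 32 genes by that test. Nr1h3 is among the 25 in CIS-/- and among the 19, though it passed the low-count filter only through CIS-/- at 24 h.

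CIS-/- cells held more mRNA of most sterol genes than WT cells at 24 h, while a few enzymes went the other way. Of the 32 genes tested, 22 were higher and 6 lower in CIS-/- than in WT, where 76.3% of all genes were called in either direction, 38.2% higher and 38.1% lower. The median log2 difference of the 32 was 0.956, beside -0.021 over all genes. The largest differences were those of Abca1, 2.74 ± 0.18 (± SE) on the log2 scale, and Hsd17b7, 2.13 ± 0.071, apart from Nr1h3. Nr1h3 passed the filter on low counts only through the CIS-/- libraries at 24 h, where it was high, so it had to differ and its place among the 22 supports nothing. The 6 that were lower were Tm7sf2, Acat2, Ebp, Acly, Acaca and Srebf1, and Mvk, Fdps, Dhcr7 and Nr1h2 did not pass the test.

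These counts depend on how the libraries were scaled, since the TMM factors were 1.28 to 1.29 in the WT libraries at 24 h and 0.884 to 0.894 in the CIS-/- libraries at 24 h. Scaling by library sizes alone moved the median of all genes in this comparison to -0.552, and the split of the 32 genes to 19 higher and 12 lower. The median of the 32 was then 0.423, against 0.956 with TMM. Under that scaling Nsdhl (-0.26) and Insig2 (-0.21) turned to lower, Fasn was not called (0.049, adjusted p = 0.667), and the 4 genes that had not passed were called lower. The other 25 genes kept their direction and their call.

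**Figure D3:**
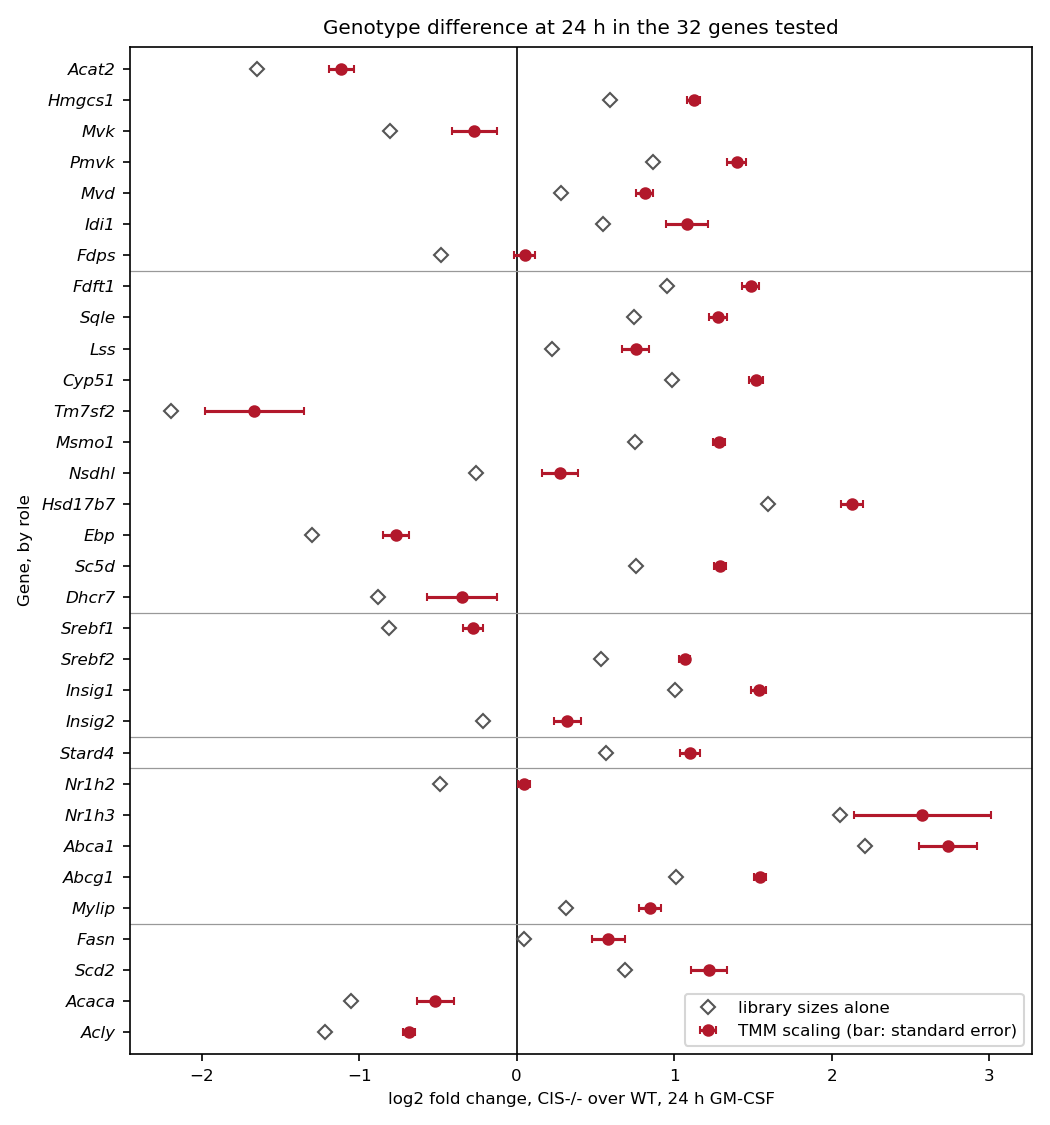
Log2 fold change of CIS-/- over WT at 24 h for the 32 genes tested, by role, with TMM scaling (circles with standard errors) and with library sizes alone (diamonds). Library sizes alone set each gene about 0.5 lower, which takes Nsdhl and Insig2 below 0 and leaves Abca1, Nr1h3 and Hsd17b7 with the largest positive values.

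The mevalonate steps make the isoprene units of the pathway, and 4 of their 7 enzymes were higher in CIS-/- than in WT cells at 24 h, 1 was lower and 2 did not pass. Hmgcs1 had 27.7, 28.5 and 28.9 CPM unstimulated, 52.1, 50.9 and 50.9 CPM at 4 h and 212, 207 and 215 CPM at 24 h in CIS-/- libraries. In WT libraries Hmgcs1 had 42.5, 37.7 and 36.8 CPM unstimulated, 54.9, 61.7 and 59.1 CPM at 4 h and 94, 102 and 94.7 CPM at 24 h. It started lower in unstimulated CIS-/- cells and ended higher, by 1.12 ± 0.042 at 24 h (adjusted p = 4.4e-33), with no overlap of the libraries at either time.

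Pmvk, phosphomevalonate kinase, stood at 15.1, 15.5 and 14.9 CPM unstimulated, 7.21, 6.16 and 5.44 CPM at 4 h and 67.2, 59.5 and 59.5 CPM at 24 h in CIS-/- libraries. WT libraries had 11.1, 12 and 14.1 CPM unstimulated, 6.7, 7 and 6.34 CPM at 4 h and 23.5, 23.2 and 23.9 CPM at 24 h of Pmvk. It fell by 4 h in both genotypes and then rose, and was higher in CIS-/- at 24 h by 1.40 ± 0.062. Mvd, which removes a carboxyl group from mevalonate diphosphate, had 8.03, 8.62 and 7.92 CPM unstimulated, 23.5, 25.7 and 24.1 CPM at 4 h and 70.2, 67.5 and 59.6 CPM at 24 h in CIS-/- libraries. The WT values of Mvd were 7.76, 7.39 and 7.94 CPM unstimulated, 20.9, 21 and 22.1 CPM at 4 h and 39.1, 37.3 and 35.1 CPM at 24 h. Mvd rose at each step in both genotypes and differed by 0.81 ± 0.056 at 24 h.

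Idi1, the isomerase of the isoprene units, was scarce before 24 h. CIS-/- libraries had 0.912, 1.71 and 0.966 CPM unstimulated, 0.174, 0.633 and 0.595 CPM at 4 h and 14.6, 15.6 and 17.8 CPM at 24 h. For WT the Idi1 values were 1.71, 1.68 and 0.644 CPM unstimulated, 0.837, 0.611 and 0.482 CPM at 4 h and 6.05, 8.41 and 8.33 CPM at 24 h. The 24 h libraries of the genotypes did not overlap, and Idi1 was higher in CIS-/- by 1.08 ± 0.13 (adjusted p = 2.22e-09).

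Acat2, the thiolase that joins acetyl-CoA units ahead of Hmgcs1, ran against its neighbours. It had 2.61, 2.47 and 1.67 CPM unstimulated, 14, 13.6 and 16.5 CPM at 4 h and 17, 14.2 and 15.4 CPM at 24 h in CIS-/- libraries. The WT libraries had 1.65, 1.81 and 1.66 CPM unstimulated, 10.4, 13.5 and 11.5 CPM at 4 h and 33.8, 34.6 and 32.4 CPM at 24 h of Acat2. In CIS-/- cells it rose by 4 h and showed 0.092 ± 0.095 from 4 h to 24 h (adjusted p = 0.38), whereas in WT cells it rose at both steps, and at 24 h it was lower in CIS-/- by a log2 difference of -1.11 ± 0.078. Reads of Acat2 may be shared with its close relative Acat3, which leaves its level uncertain.

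Fdps, which makes farnesyl diphosphate, had the largest log2 rise of the 32 genes from unstimulated to 24 h in each genotype, and it showed no genotype difference past the test. It averaged 0.42 ± 0.14 CPM unstimulated, 10.9 ± 0.57 CPM at 4 h and 33.8 ± 2.9 CPM at 24 h in CIS-/- cells, and 0.612 ± 0.26, 11.7 ± 0.85 and 32.3 ± 2.1 CPM in WT cells at the same times. The 24 h difference was 0.051 ± 0.068 (adjusted p = 0.496), and 26.7% of its exon bases are shared with Gm43738 on the same strand. Mvk, mevalonate kinase, averaged 4.56 ± 0.75 CPM in CIS-/- and 5.53 ± 0.3 CPM in WT cells at 24 h, a difference of -0.27 ± 0.14 that did not pass (adjusted p = 0.0798).

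From squalene to cholesterol, 8 of 11 enzymes were higher in CIS-/- than in WT cells at 24 h, 2 were lower and Dhcr7 did not pass. Sqle, squalene epoxidase and a control point of the pathway, had 1.82, 2.22 and 2.71 CPM unstimulated, 3.22, 4.09 and 3.4 CPM at 4 h and 91.4, 94.9 and 90.7 CPM at 24 h in CIS-/- libraries. WT libraries had 4.58, 3.83 and 4.67 CPM unstimulated, 3.81, 5.09 and 6.26 CPM at 4 h and 38.6, 38.7 and 36.4 CPM at 24 h of Sqle. The 24 h libraries lay far apart, 1.28 ± 0.056 on the log2 scale, although Sqle had been lower in CIS-/- than in WT cells before stimulation (-0.97 ± 0.17, adjusted p = 1.01e-05).

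Cyp51 encodes the demethylase of lanosterol. Its CIS-/- values were 9.91, 10.9 and 10.3 CPM unstimulated, 7.13, 8.69 and 6.89 CPM at 4 h and 178, 172 and 192 CPM at 24 h. Its WT values were 9.23, 10.2 and 9.88 CPM unstimulated, 7.16, 7.68 and 7.87 CPM at 4 h and 60.7, 65 and 64 CPM at 24 h. The genotypes overlapped at the first times, where no difference passed, and parted at 24 h by 1.52 ± 0.045 (adjusted p = 4.88e-38). Cyp51 shares 3.8% of its exon bases with Akap9 on the opposite strand.

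Fdft1, squalene synthase, had 6.2, 7.1 and 6.51 CPM unstimulated, 12.3, 13.6 and 11 CPM at 4 h and 100, 91 and 97.7 CPM at 24 h in CIS-/- libraries. In WT libraries it had 11.5, 9.13 and 10.7 CPM unstimulated, 14.4, 14.1 and 14.8 CPM at 4 h and 36.2, 32.5 and 34.9 CPM at 24 h. Fdft1 differed by 1.49 ± 0.054 at 24 h. Its exons overlap those of Ctsb on the opposite strand over 18.3% of their bases, and Ctsb reached 2562 CPM, so that the level of Fdft1 is uncertain if strand was not used in counting.

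Lss, which closes squalene epoxide into lanosterol, had 1.28, 0.634 and 0.709 CPM unstimulated, 1.56, 1.78 and 1.36 CPM at 4 h and 28.3, 26.2 and 32.2 CPM at 24 h in CIS-/- libraries. The WT values of Lss were 2.14, 2.55 and 1.23 CPM unstimulated, 1.9, 1.63 and 2.09 CPM at 4 h and 17.9, 18.1 and 15.7 CPM at 24 h. Nearly all of the rise came after 4 h, and the 24 h difference was 0.76 ± 0.085.

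Removal of the methyl groups of lanosterol takes Msmo1, Nsdhl and Hsd17b7 in turn. Msmo1 had 53.6, 50.8 and 52.5 CPM unstimulated, 65.7, 72 and 64.9 CPM at 4 h and 232, 223 and 231 CPM at 24 h in CIS-/- libraries. WT libraries held 63.4, 62.3 and 59.7 CPM unstimulated, 70.4, 75.6 and 73.2 CPM at 4 h and 91.2, 97.4 and 93 CPM at 24 h of Msmo1. Its 24 h difference was 1.28 ± 0.04. From unstimulated to 24 h CIS-/- cells rose by 2.13 ± 0.044 and WT cells by 0.61 ± 0.044.

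Hsd17b7 had 8.15, 7.73 and 8.37 CPM unstimulated, 2.26, 2.88 and 2.3 CPM at 4 h and 44.7, 49.8 and 51 CPM at 24 h in CIS-/- libraries. In the WT libraries it had 11.1, 9.74 and 9.61 CPM unstimulated, 2.66, 3.06 and 2.89 CPM at 4 h and 11.8, 11 and 10.6 CPM at 24 h. It fell by 4 h in both genotypes, and at 24 h CIS-/- cells stood 2.59 ± 0.081 above their unstimulated level. In WT cells the log2 change was 0.14 ± 0.09 (adjusted p = 0.164) with TMM scaling and 0.44 (adjusted p = 1.27e-05) with library sizes alone. Nsdhl had 4.38, 4.94 and 4.64 CPM unstimulated, 1.22, 1.38 and 2.04 CPM at 4 h and 9.76, 10.6 and 10.6 CPM at 24 h in CIS-/- libraries. Nsdhl values in WT were 5.93, 5.24 and 6.28 CPM unstimulated, 1.83, 2.65 and 1.12 CPM at 4 h and 8.47, 9.42 and 7.45 CPM at 24 h. Its difference at 24 h was small, 0.28 ± 0.11 (adjusted p = 0.0251), and was no longer called without CIS-/- replicate 2 (adjusted p = 0.0556), without CIS-/- replicate 3 (0.091) or without WT replicate 3 (0.125).

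Sc5d, a desaturase near the end of the pathway, was the most abundant of the 18 enzymes per kilobase of exon in CIS-/- cells at 24 h, at 63.7 CPM per kilobase. It had 34.9, 37.3 and 35.4 CPM unstimulated, 73.1, 71.9 and 71.9 CPM at 4 h and 320, 293 and 317 CPM at 24 h in CIS-/- libraries. The WT libraries stood at 38.4, 36.5 and 40 CPM unstimulated, 97.5, 100 and 99.7 CPM at 4 h and 128, 129 and 122 CPM at 24 h. In WT cells most of its rise was complete by 4 h with TMM scaling, where the log2 change from unstimulated was 1.37 at 4 h and 1.72 at 24 h. With library sizes alone these WT changes were 1.19 and 2.03, so the part of the rise reached by 4 h depends on the scaling. CIS-/- cells were lower than WT at 4 h (-0.46 ± 0.046) and higher at 24 h (1.29 ± 0.038).

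Ebp and Tm7sf2 were the enzymes of these late steps that were lower in CIS-/- cells at 24 h. Ebp, the sterol isomerase, had 17.2, 17.9 and 18.6 CPM unstimulated, 8.52, 8.35 and 6.97 CPM at 4 h and 14.9, 16.1 and 13.8 CPM at 24 h in CIS-/- libraries. Ebp in WT libraries was at 19.2, 17.3 and 14.9 CPM unstimulated, 8.14, 7.06 and 6.34 CPM at 4 h and 27.4, 24.7 and 23.2 CPM at 24 h. It fell by 4 h in both genotypes and recovered further in WT, with a 24 h difference of -0.77 ± 0.083 (adjusted p = 1.47e-12). Tm7sf2, a sterol reductase, averaged 3.22 ± 0.17 CPM unstimulated, 1.64 ± 0.33 CPM at 4 h and 0.546 ± 0.35 CPM at 24 h in CIS-/- cells, and 4.14 ± 0.59, 1.35 ± 0.29 and 1.63 ± 0.16 CPM in WT cells. It differed by -1.67 ± 0.31 at 24 h, at a low level and with 12.1% of its exon bases shared with Vps51 on the same strand. Dhcr7, the reductase that yields cholesterol, averaged 2.35 ± 0.7 CPM in CIS-/- and 2.87 ± 0.56 CPM in WT cells at 24 h (-0.35 ± 0.22, adjusted p = 0.151).

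Among the regulators, Srebf2, the factor that drives the synthesis genes, and Insig1, itself a known target of the SREBP factors, were higher in CIS-/- cells at 24 h. Srebf2 had 130, 133 and 131 CPM unstimulated, 113, 117 and 111 CPM at 4 h and 475, 548 and 524 CPM at 24 h in CIS-/- libraries. WT libraries had 134, 132 and 134 CPM unstimulated, 151, 145 and 152 CPM at 4 h and 250, 239 and 250 CPM at 24 h. The genotypes did not differ past the test before stimulation, and CIS-/- differed by -0.39 ± 0.043 at 4 h and 1.07 ± 0.037 at 24 h. At 71.8 CPM per kilobase Srebf2 was the most abundant of the 33 genes per exon length in CIS-/- cells at 24 h, against 34.3 CPM per kilobase in WT cells.

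Insig1 had 19, 18.4 and 18.2 CPM unstimulated, 7.47, 7.2 and 8.67 CPM at 4 h and 146, 144 and 153 CPM at 24 h in CIS-/- libraries. Insig1 stood at 15.8, 15 and 14 CPM unstimulated, 9.59, 7.2 and 8.27 CPM at 4 h and 51.7, 51.4 and 50.2 CPM at 24 h in WT libraries. It fell by 4 h in both genotypes and rose after it, to a 24 h difference of 1.54 ± 0.047 (adjusted p = 1.44e-37). Its relative Insig2, which is less tied to SREBP activity, changed less. Insig2 had 9.18, 9.13 and 9.34 CPM unstimulated, 16.4, 17 and 15.8 CPM at 4 h and 14.3, 15.3 and 15.5 CPM at 24 h in CIS-/- libraries. Insig2 levels in WT were 11.1, 10.6 and 11.5 CPM unstimulated, 16.7, 15.2 and 17.3 CPM at 4 h and 13.7, 12 and 10.4 CPM at 24 h. The 24 h difference was 0.32 ± 0.086 with TMM scaling and -0.21 with library sizes alone, so its direction rests on the scaling.

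Srebf1, which drives fatty acid more than sterol synthesis, took another course from Srebf2. It had 25.1, 24.6 and 23.4 CPM unstimulated, 9.99, 10.5 and 11.3 CPM at 4 h and 28.7, 31.9 and 29 CPM at 24 h in CIS-/- libraries. The WT Srebf1 values were 29, 28.5 and 26.4 CPM unstimulated, 13.1, 9.92 and 13.8 CPM at 4 h and 34.8, 35 and 38.3 CPM at 24 h. It fell by 4 h and returned by 24 h in both genotypes, ending lower in CIS-/- than in WT by a log2 difference of -0.28 ± 0.066 (adjusted p = 0.000144). The changes from 4 h to 24 h did not differ past the test between genotypes (-0.075 ± 0.12, adjusted p = 0.611) with TMM scaling, and did with library sizes alone (-0.60, adjusted p = 2.79e-05).

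Stard4, which carries sterol between membranes in the cytosol, followed the synthesis enzymes. It had 4.01, 4.88 and 5.6 CPM unstimulated, 4.61, 6.91 and 5.44 CPM at 4 h and 57.6, 63.3 and 65.9 CPM at 24 h in CIS-/- libraries. Stard4 in WT libraries was at 7.03, 8.46 and 6.6 CPM unstimulated, 6.09, 6.93 and 6.26 CPM at 4 h and 29.5, 28.2 and 29.7 CPM at 24 h. It did not change past the test by 4 h in either genotype, except in WT cells with library sizes alone (-0.36, adjusted p = 0.0119), rose by 24 h in both, and was 2.15-fold higher in CIS-/- than in WT cells at 24 h (1.10 ± 0.064, adjusted p = 1.03e-23).

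**Figure D4:**
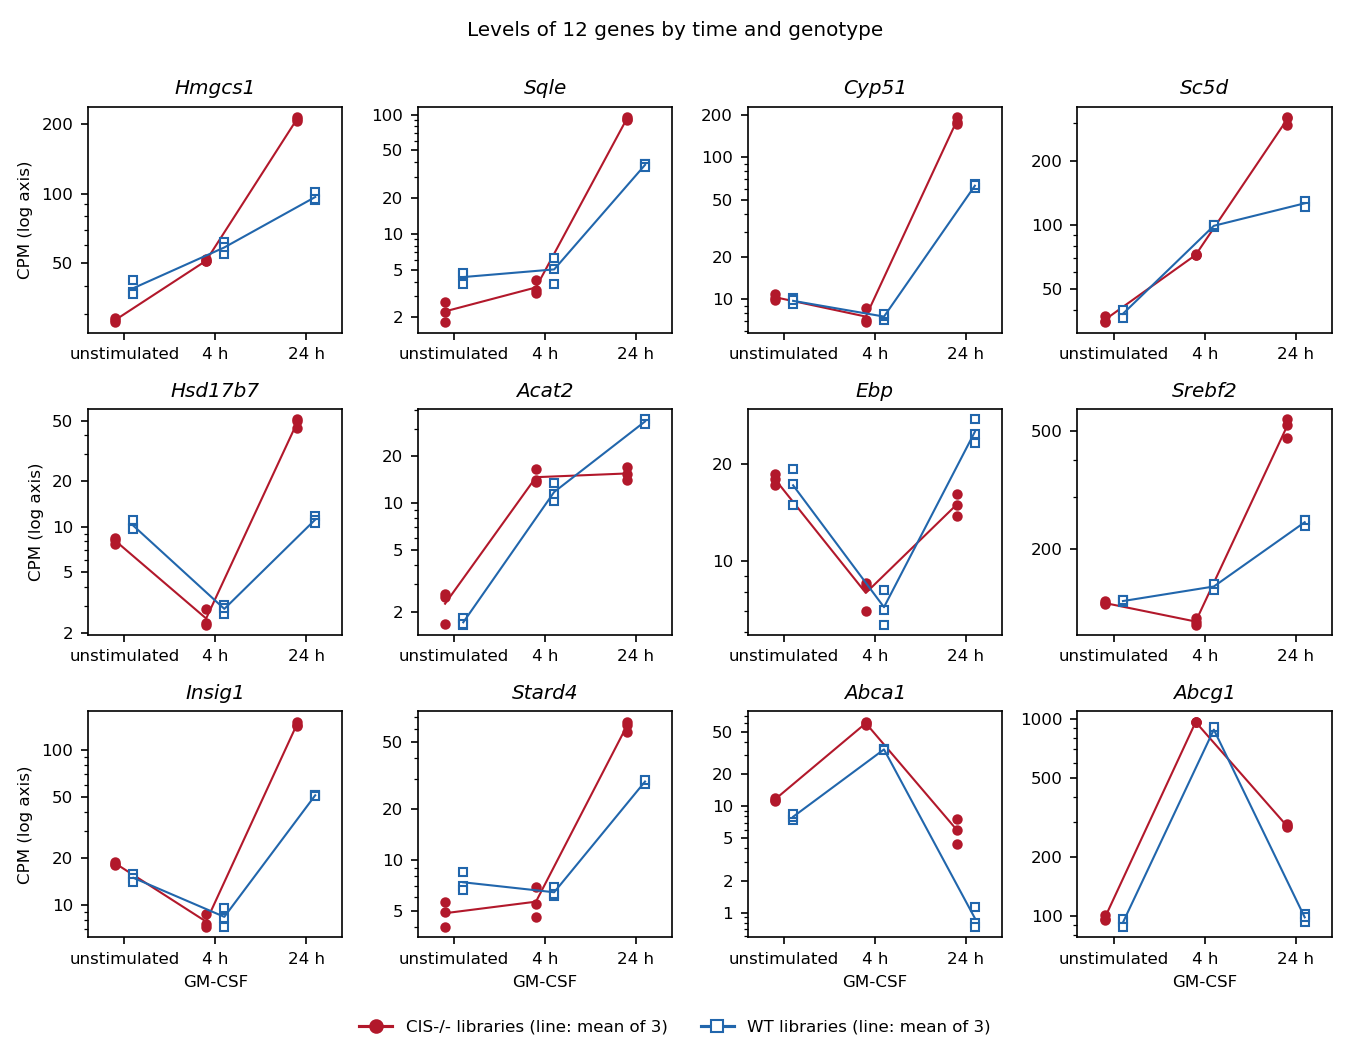
CPM of 12 genes on log axes, unstimulated and after 4 h and 24 h of GM-CSF, with each CIS-/- library as a filled circle, each WT library as an open square and lines through the means of 3 libraries. The genotypes lie furthest apart at 24 h, where CIS-/- is above WT for 10 of the 12 genes and below it for Acat2 and Ebp. Some genes differ earlier: CIS-/- is below WT for unstimulated Sqle, Hmgcs1 and Stard4 and for Sc5d at 4 h, and above it for Abca1 at 4 h.

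The exporters Abca1 and Abcg1, which move cholesterol out of the cell, rose by 4 h and then fell in both genotypes. Abcg1 had 96.1, 97 and 101 CPM unstimulated, 960, 961 and 966 CPM at 4 h and 288, 293 and 283 CPM at 24 h in CIS-/- libraries. In WT libraries Abcg1 was at 93.2, 97.3 and 88.4 CPM unstimulated, 883, 853 and 906 CPM at 4 h and 103, 94 and 99.2 CPM at 24 h. The rise by 4 h was 3.30 ± 0.039 in CIS-/- and 3.25 ± 0.039 in WT cells, and the difference between these changes, 0.051 ± 0.053, did not pass the test (adjusted p = 0.616). At 24 h CIS-/- cells stood 1.55 ± 0.039 and WT cells 0.089 ± 0.04 above their unstimulated levels, a genotype difference of 1.54 ± 0.038. With library sizes alone the WT change was 0.40 (adjusted p = 2.24e-13). With TMM scaling the WT change lost its call when WT unstimulated replicate 1 or 3 or WT 24 h replicate 1 or 3 was left out, with adjusted p between 0.0691 and 0.312.

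Abca1 was less abundant and fell further. It had 11.1, 11.5 and 12 CPM unstimulated, 57.6, 61.9 and 60.3 CPM at 4 h and 4.42, 7.63 and 5.9 CPM at 24 h in CIS-/- libraries. WT libraries had 7.39, 7.93 and 8.48 CPM unstimulated, 34.2, 34.2 and 33.6 CPM at 4 h and 1.12, 0.799 and 0.735 CPM at 24 h of Abca1. CIS-/- cells were higher at each time, by 0.54 ± 0.1 unstimulated, 0.82 ± 0.066 at 4 h and 2.74 ± 0.18 at 24 h. At 24 h both genotypes were below their unstimulated level, with a log2 change of -0.97 ± 0.12 in CIS-/- and -3.17 ± 0.17 in WT cells.

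Mylip fell with time in both genotypes. It had 107, 96.9 and 106 CPM unstimulated, 78.9, 82.5 and 84.3 CPM at 4 h and 25.3, 24.2 and 23.8 CPM at 24 h in CIS-/- libraries. Mylip values in WT libraries were 93.7, 93.6 and 97.5 CPM unstimulated, 70.3, 74.9 and 76.5 CPM at 4 h and 12.3, 14.3 and 13.8 CPM at 24 h. The log2 change by 24 h was -2.09 ± 0.056 in CIS-/- and -2.81 ± 0.057 in WT cells, which left CIS-/- higher at 24 h by 0.85 ± 0.071 (adjusted p = 1.63e-16).

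Of the LXR factors, Nr1h2, the widely expressed form, was the one present at a substantial level. It averaged 208 ± 4.2 CPM unstimulated, 134 ± 7 CPM at 4 h and 136 ± 2.3 CPM at 24 h in CIS-/- cells, and 159 ± 2.2, 130 ± 4.1 and 132 ± 3.5 CPM in WT cells. It was higher in unstimulated CIS-/- cells (0.39 ± 0.037, adjusted p = 5.08e-13) and did not differ past the test at 4 h or 24 h. Nr1h3, the form best known from macrophages and liver, was near the limit of detection with 1 to 22 counts a library. It averaged 1.25 ± 0.35 CPM in CIS-/- and 0.195 ± 0.13 CPM in WT cells at 24 h (2.58 ± 0.44), given as a description since the filter on low counts let it in only through that CIS-/- group.

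Fatty acid synthesis genes split. Fasn and Scd2 were higher in CIS-/- than in WT cells at 24 h, Acaca and Acly were lower, and Scd1 had 0 to 13 counts a library and was not tested. Acly, which makes cytosolic acetyl-CoA from citrate and so feeds both sterol and fatty acid synthesis, had 200, 207 and 206 CPM unstimulated, 117, 119 and 120 CPM at 4 h and 169, 177 and 189 CPM at 24 h in CIS-/- libraries. For WT libraries the Acly values were 202, 211 and 211 CPM unstimulated, 121, 125 and 122 CPM at 4 h and 296, 279 and 287 CPM at 24 h. It fell by 4 h in both genotypes and came back above the unstimulated level in WT cells alone (-0.20 ± 0.038 in CIS-/-, 0.47 ± 0.036 in WT), leaving a genotype difference of -0.68 ± 0.037 at 24 h.

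Acaca, acetyl-CoA carboxylase, had 2.19, 1.58 and 2.58 CPM unstimulated, 1.3, 1.84 and 1.53 CPM at 4 h and 6.27, 7.81 and 7.15 CPM at 24 h in CIS-/- libraries. Acaca in WT was at 2.81, 2.22 and 2.58 CPM unstimulated, 1.67, 1.83 and 2.09 CPM at 4 h and 10.2, 10.3 and 9.7 CPM at 24 h. It rose by 24 h in both genotypes and was lower in CIS-/- by a log2 difference of -0.52 ± 0.12 (adjusted p = 6.89e-05).

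Fasn, fatty acid synthase, had 0.486, 0.697 and 1.1 CPM unstimulated, 1.82, 2.01 and 2.47 CPM at 4 h and 12.7, 14.2 and 17.3 CPM at 24 h in CIS-/- libraries. Fasn in WT stood at 0.917, 0.806 and 0.913 CPM unstimulated, 2.21, 2.11 and 1.85 CPM at 4 h and 9.3, 9.87 and 10.9 CPM at 24 h. It was higher in CIS-/- at 24 h by 0.58 ± 0.1 with TMM scaling. Scd2, a desaturase, had 6.02, 5.83 and 7.21 CPM unstimulated, 1.91, 2.65 and 1.45 CPM at 4 h and 11.5, 13.1 and 13.1 CPM at 24 h in CIS-/- libraries. Scd2 in WT was at 4.09, 3.36 and 4.08 CPM unstimulated, 1.22, 1.29 and 0.803 CPM at 4 h and 4.88, 5.46 and 5.88 CPM at 24 h. CIS-/- cells were higher at each time, by 0.71 ± 0.15 unstimulated, 0.90 ± 0.26 at 4 h and 1.22 ± 0.12 at 24 h. The 4 h call was lost without CIS-/- replicate 2 (0.58, adjusted p = 0.256) and without WT replicate 3 (0.72, adjusted p = 0.0848), and reads of Scd1 and Scd2 may be shared between these close relatives.

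Before stimulation the genotypes were much closer. Of the 32 genes tested, 6 were higher and 9 lower in unstimulated libraries labelled CIS-/- than in WT, with 22.3% of all genes called (12.9% higher, 9.41% lower), and the median difference was -0.157 beside -0.0086 over all genes. Without CIS-/- replicate 1 that median was -0.047. The 5 squalene and sterol enzymes called were all lower, by log2 differences of -1.13 ± 0.28 for Lss, -0.97 ± 0.17 for Sqle, -0.67 ± 0.11 for Fdft1, -0.32 ± 0.1 for Hsd17b7 and -0.24 ± 0.049 for Msmo1. Hmgcs1 (-0.46 ± 0.06), Stard4 (-0.60 ± 0.13), Insig2 (-0.27 ± 0.1) and Srebf1 (-0.20 ± 0.072) were also lower. Scd2, Abca1, Nr1h2, Insig1, Pmvk and Mylip were higher, by 0.12 for Mylip to 0.71 for Scd2. Of the 15 calls, 5 were lost when some single library was left out. Pmvk lost its call without WT replicate 1 (adjusted p = 0.144) or 2 (0.056), and Hsd17b7 without WT replicate 1 (0.116) or CIS-/- replicate 2 (0.071). Insig2 lost it without any 1 of the 6 libraries (0.0527 to 0.155), Mylip without any except CIS-/- replicate 2 (0.0504 to 0.23) and Srebf1 without any except WT replicate 3 (0.0542 to 0.147).

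After 4 h of GM-CSF 5 genes were higher in CIS-/- than in WT cells (Abca1, Scd2, Acat2, Mylip and Abcg1) and 4 were lower (Sqle, Sc5d, Srebf2 and Hmgcs1), with 17.3% of all genes called (8.0% higher, 9.29% lower) and a median of -0.0921 beside -0.0155 over all genes. That median was -0.0307 without CIS-/- replicate 1 and -0.0376 without WT replicate 2. Acat2 was higher in CIS-/- at 4 h (0.30 ± 0.1, adjusted p = 0.0289) and lower at 24 h. Of the 9 calls, 6 were lost when some single library was left out, and those of Abca1, Sc5d and Srebf2 were not. Without WT replicate 2 these were Hmgcs1 (adjusted p = 0.0864), Sqle (0.0871), Abcg1 (0.063) and Mylip (0.056), and without WT replicate 1 Acat2 (0.224) and Mylip (0.196). Without WT replicate 3 they were Acat2 (0.0963), Sqle (0.303) and Scd2, without CIS-/- replicate 1 Sqle (0.124), without CIS-/- replicate 2 Mylip (0.104) and Scd2, and without CIS-/- replicate 3 Acat2 (0.216), Sqle (0.101) and Mylip (0.125).

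The test of whether the change from 4 h to 24 h differed between genotypes was called for 23 of the 32 genes, 19 with a larger log2 change in CIS-/- and 4 with a smaller one, beside 66.0% of all genes (33.9% positive, 32.1% negative). Nr1h3 is among the 19, and its place supports nothing, since it passed the low-count filter only through the CIS-/- libraries at 24 h. The median difference was 0.835 beside -0.00656 over all genes. Among the 18 synthesis enzymes it was largest for Hsd17b7 (2.31 ± 0.21), Sc5d (1.75 ± 0.059) and Sqle (1.75 ± 0.17), and it was negative for Tm7sf2 (-1.94 ± 0.42), Acat2 (-1.42 ± 0.13) and Ebp (-0.92 ± 0.15). With library sizes alone the split was 14 and 9, with a median of all genes at -0.527, and Mvk, Fdps, Srebf1, Nr1h2 and Acaca joined the negative ones. From unstimulated to 4 h the test was called for 6 genes, 2 positive (Fdft1 and Hmgcs1) and 4 negative (Insig1, Srebf2, Sc5d and Nr1h2), beside 15.7% of all genes (5.32% positive, 10.4% negative). Without WT unstimulated replicate 1 neither positive call held (Fdft1 0.40, adjusted p = 0.0784, and Hmgcs1 0.21, adjusted p = 0.092). Hmgcs1 also lost its call without WT 4 h replicate 1 (0.0718), Fdft1 without CIS-/- unstimulated replicate 1 (0.064) or CIS-/- 4 h replicate 2 (0.127), and Insig1 without any 1 of 5 libraries (0.0525 to 0.166): WT unstimulated replicate 3, CIS-/- unstimulated replicate 1, WT 4 h replicate 1 and CIS-/- 4 h replicates 1 and 2.

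Of 58 further genes of SREBP processing, the isoprenoid branch, sterol storage, LXR partners and targets, and fatty acid and glycerolipid synthesis, 44 were tested, and 20 were higher and 19 lower in CIS-/- than in WT cells at 24 h (median log2 difference 0.143), where 76.3% of all genes were called. Scaled by library sizes the split was 8 higher and 28 lower (median -0.39), so these counts rest on the scaling. At 24 h against unstimulated 24 rose and 18 fell in CIS-/- cells (median log2 change 0.278), and 21 rose and 17 fell in WT cells (median 0.0907), with 84.1% of all genes called in CIS-/- and 78.4% in WT cells. With library sizes alone 22 rose and 18 fell in CIS-/- cells, and 29 rose and 11 fell in WT cells. Of 10 SREBP processing genes 2 were higher and 7 lower in CIS-/- at 24 h with TMM scaling, and 1 and 9 with library sizes alone, beside 38.2% of all genes higher and 38.1% lower with TMM. In the isoprenoid branch 6 of 10 were higher and 2 lower with TMM scaling, and 0 and 6 with library sizes alone. Of 7 LXR partners and reported targets 2 were higher and 5 lower with TMM scaling, and 1 and 5 with library sizes alone. Scap, the escort of the SREBP factors, averaged 11 ± 0.69 CPM in CIS-/- and 31.8 ± 1 CPM in WT cells at 24 h (-1.52 ± 0.075, adjusted p = 6.61e-27).

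Among those of at least 10 CPM, the largest positive differences at 24 h were of 3 genes. Nceh1, a hydrolase of cholesterol esters, averaged 231 ± 4.6 CPM in CIS-/- and 40 ± 1.8 CPM in WT cells (2.52 ± 0.044). Rxra, the receptor that pairs with the LXR factors, averaged 168 ± 11 CPM in CIS-/- and 30.7 ± 1.2 CPM in WT cells (2.46 ± 0.048), and Osbpl8, a sterol-binding protein of the endoplasmic reticulum, averaged 463 ± 46 CPM in CIS-/- and 109 ± 3.5 CPM in WT cells (2.09 ± 0.05). Acss2, which makes acetyl-CoA from acetate, was lower in CIS-/- (5.88 ± 1.1 CPM against 24 ± 1.5 CPM in WT, -2.00 ± 0.094). Smpdl3a, reported as an LXR target in human macrophages, was lower too (8.39 ± 0.53 CPM in CIS-/- against 30.3 ± 1 CPM in WT, -1.83 ± 0.077), so that it did not share the direction of Abca1 and Abcg1. Ch25h, which makes an oxysterol and is named here after its values were seen, fell under that level. It had 2.87, 2.85 and 2.9 CPM in CIS-/- and 0, 0.0695 and 0.049 CPM in WT libraries at 24 h. The low-count filter was not checked for Ch25h group by group, and its values are description only.

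In WT cells the largest positive changes of this wider list from unstimulated to 24 h were those of Npc2, a lysosomal sterol transfer protein (210 ± 8 CPM at 24 h against 69.9 ± 1.9 CPM unstimulated, 1.59 ± 0.041), the cholesterol acyltransferase Soat2 (1.20 ± 0.076) and the fatty acid elongase Elovl5 (1.16 ± 0.082). The largest falls were those of Smpdl3a (30.3 ± 1 CPM at 24 h against 182 ± 3.3 CPM unstimulated, -2.59 ± 0.047), Rabggta, a subunit of an enzyme that attaches isoprenoids to Rab proteins (-1.52 ± 0.067), and Dhdds, which makes dolichol chains (-1.29 ± 0.043).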

How the data were processed

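Libraries were made with a directional kit from RNA of sorted neutrophils, per the labels' protocols. The authors deposited whole-number counts of reads per Ensembl gene for 18 libraries. Trimmomatic, STAR, featureCounts and the mm10 build are named in the submitters' processing notes, while no source used here gives their versions, the annotation or the strand setting. 1 label note gives another length for the longer culture, and 24 h, as in the sample titles, was used. Columns of other samples numbered 0. IDs were named from GENCODE M21 (GRCm38), and the 105 unnamed of 53379 IDs held 0.0238% of counts. The genes, the wider lists and the tests were chosen with earlier results of these data known.

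Counts were filtered (filterByExpr), scaled by TMM and fitted with edgeR 4.0.16 (R 4.3.3) in a single model of 6 groups, with quasi-likelihood tests over 11569 genes. Alternatives were RLE factors, library sizes alone, DESeq2 1.42.0, limma-voom (limma 3.58.1), no filter, a filter of 50 counts in 3 libraries, the compared groups alone, a replicate block and each library left out. A fit without the unstimulated libraries labelled CIS-/- was added after seeing the data. The fit was also run on simulated counts in which a small set of genes was changed by known folds. Most genes were called in the real data, so that run does not test the scaling. Chi-square per degree of freedom between libraries of a group was 1.285 to 8.461, so none was counted as a duplicate. CIS-/- 24 h replicate 1 stood apart, with 6.82 against replicate 2 and 8.461 against replicate 3, which gave 2.403 between them. No other pair exceeded 2.899. Without that replicate the median log2 difference of the 32 genes in CIS-/- against WT at 24 h was 0.973. Each of the 33 genes is named, with values in every library for those called in CIS-/- against WT at 24 h or in the 4 h to 24 h interaction and averaging at least 5 CPM in some group. Of the wider list, the 3 called genes with the largest positive and negative change and at least 10 CPM are named. For fold changes ± SE, n is 3 libraries per group.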

Additional observations from a re-analysis of the deposited data

Results flagged for a closer look

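The genes below changed over time to a different extent in CIS-/- and WT cells, by the test of the interaction itself. Positive values mean a larger log2 change in CIS-/- cells, and no cause was weighed.

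From 4 h to 24 h the difference was positive for Hmgcs1 (1.32), Pmvk (1.5), Mvd (0.61) and Idi1 (1.47) of the mevalonate steps. It was positive for Fdft1 (1.69), Sqle (1.75), Lss (0.97), Cyp51 (1.49), Msmo1 (1.39), Hsd17b7 (2.31) and Sc5d (1.75) of the later steps. The regulators Srebf2 (1.46), Insig1 (1.65) and Insig2 (0.31) and the carrier Stard4 (1.25) were positive too, as were Nr1h3 (2.50), Abca1 (1.92), Abcg1 (1.42) and Mylip (0.70), for which the log2 change over this step was less negative in CIS-/- or, for Nr1h3, positive there and, without passing the test, negative in WT. Nr1h3 passed the low-count filter only through the CIS-/- libraries at 24 h, so its value is a description. It was negative for Acat2 (-1.42), Tm7sf2 (-1.94), Ebp (-0.92) and Acly (-0.64).

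From unstimulated to 4 h the difference was positive for Hmgcs1 (0.27) and Fdft1 (0.46) and negative for Sc5d (-0.36), Srebf2 (-0.37), Insig1 (-0.43) and Nr1h2 (-0.34). These use the unstimulated libraries labelled CIS-/-, in which Cish went against the label.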

How the results depend on the processing

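The 258 called results of single genes were refitted under the alternatives, which gave 3956 values. Of these 3842 kept direction and call, 108 kept direction without the call and 6 reversed, and 223 of the 258 results were the same in each alternative run for them. The 6 reversals came with library sizes alone: Srebf2 at 4 h against unstimulated in WT (-0.014), Nr1h2 at 24 h against unstimulated in WT (0.038), Insig2 at 24 h against 4 h in WT (0.046), Nsdhl (-0.26) and Insig2 (-0.21) in CIS-/- against WT at 24 h, and Insig2 in the 4 h to 24 h interaction (-0.21). That scaling also moved the genes lower in CIS-/- than in WT at 24 h to 12, against 6 with TMM, and the negative interactions from 4 h to 24 h to 9, against 4. It lost the interaction calls of Mvd (adjusted p = 0.426), Idi1 (0.114), Lss (0.14) and Mylip (0.068). This scaling moves the median of all genes by its construction. Beside -0.552 in CIS-/- against WT at 24 h and -0.527 in the 4 h to 24 h interaction, that median was 0.36 and 0.448 in WT at 24 h against unstimulated and against 4 h, -0.192 in WT and -0.171 in CIS-/- at 4 h against unstimulated, and -0.197 in CIS-/- at 24 h against unstimulated.

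Leaving out each library in turn gave 3 to 5 genes higher in CIS-/- than in WT at 4 h and 0 to 3 positive interactions from unstimulated to 4 h. It gave 21 to 22 higher and 6 to 7 lower in CIS-/- against WT at 24 h. Of the interactions from 4 h to 24 h, 18 to 21 were positive and 4 negative. There Idi1 lost its call without WT 4 h replicate 1 (adjusted p = 0.101) or CIS-/- 4 h replicate 1 (0.061), and Insig2 without replicate 3 of any 1 of the 4 groups (0.0519 to 0.126). By 4 h in CIS-/- cells Idi1 lost its call without CIS-/- unstimulated replicate 2 (0.0793) or 4 h replicate 1 (0.0526), Lss without unstimulated replicate 2 (0.0645) or 4 h replicate 2 (0.073) and Dhcr7 without unstimulated replicate 3 (0.0808). By 4 h in WT cells Idi1, Nr1h3 and Acaca lost theirs without several single libraries (0.0551 to 0.139), and Ebp at 24 h in CIS-/- cells without 24 h replicate 3 (0.0601).

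The replicate numbers did not pair the libraries: same-numbered libraries of different groups correlated between -0.0775 and 0.065 over 45 pairs, and 3 of 18 libraries correlated best with their own number. With a replicate block the counts in CIS-/- against WT at 24 h stayed 22 higher and 6 lower, the interaction from 4 h to 24 h gave 20 positive and 4 negative, and 1 single-gene call was lost, that of Acaca at 4 h against unstimulated in WT (adjusted p = 0.0518). Means under 1 CPM in some group (Nr1h3, Scd1, Tm7sf2, Fdps, Idi1, Dhcr7, Mvk, Fasn, Lss and, in WT at 24 h, Abca1) rest on few counts, so depth limits the size of their changes.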
